A study of Mus musculus with 12 samples.

Results

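The genes of DNA replication and mitosis were followed across 12 arrays of mouse granulosa cells, the somatic cells that line the ovarian follicle and surround the oocyte. They form a list of 49 genes, of which 20 serve replication, 27 serve mitosis and 2, E2f1 and Foxm1, encode transcription factors of these programmes. A gene was measured where a probe set of the array was annotated to that gene alone, and its brightest probe set, by the mean of all 12 arrays, stood for it. That gave 48 of the 49 genes among the 18193 genes of the table: all 20 replication genes, 26 of the 27 mitotic genes and both factors. Ccnb1, which encodes cyclin B1, had no such probe set and was not analysed here. The list is a set of textbook members of both programmes and was not trimmed by any measured value, but it was chosen with earlier results of these data known.

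The 4 groups held 3 arrays each and crossed genotype with hormone. Cells came from wild-type (WT) mice or from bERKO mice, which lack estrogen receptor beta, the product of Esr2. All mice were 3 weeks old and all received PMSG (pregnant mare serum gonadotropin), which acts like follicle-stimulating hormone and drives follicles to grow. The PMSG groups were taken 48 h after it. The hCG groups also received human chorionic gonadotropin (hCG), which acts like the luteinizing hormone surge, and were taken 4 h after that injection. For these groups, too, 48 h of PMSG is given. If hCG followed those 48 h, no group without hCG matches the added time, so hormone and time cannot be told apart. Cells of preovulatory follicles were cut out by laser, so each array holds bulk RNA of a captured region. The strain, the allele and the number of animals behind an array are not named in the labels used here, and p-values then measure the spread between these samples.

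Replication begins when the MCM helicase, a ring of related subunits, is loaded on origins by Cdc6 and Cdt1 and switched on together with Cdc45 and the GINS complex. Primase and polymerase alpha start each strand, the clamp Pcna holds the polymerases on DNA, and ribonucleotide reductase, thymidylate synthase and thymidine kinase supply nucleotides. E2F factors are known to switch on these genes at the G1 to S transition, while the later genes of mitosis (cyclin B, Cdk1, the Aurora and Polo kinases, the spindle checkpoint, kinetochore and spindle proteins) depend on the MuvB complex with B-Myb and Foxm1. Granulosa cells of growing follicles divide actively, and the luteinizing hormone surge is known to end their division as they turn into luteal cells.

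Values are log2(intensity + 16) after quantile normalization, called levels here, and a change is a difference of mean levels, so that 1 unit is a doubling of intensity plus 16. A gene is said to rise or fall where limma's adjusted p (Benjamini-Hochberg over all 18193 genes of that comparison) was under 0.05. Median deposited signals ran from 49.1 to 113 per array. The Gapdh 3'/5' control ratio reached 32.16 on WT hCG replicate 1 and 23.74 on bERKO PMSG replicate 3 and lay between 4.72 and 11.19 on the other 10 arrays, so results are also given without this pair of arrays. Esr2 was lower by 1.24 (SE 0.37) in bERKO after PMSG and did not pass in limma (adjusted p = 0.307). The place of its 1 probe set relative to the deleted part is unknown here, so it does not check the labels. In these bulk samples fewer cells of a type and less RNA per cell cannot be told apart.

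Other cell types moved with the groups. The 17 oocyte markers had a mean level of 5.68, 6.06 and 7.97 on the WT PMSG arrays and of 8.33, 8.35 and 9.63 on the bERKO PMSG arrays. After hCG it was 5.74 to 6.46 in WT and 6.44 to 7.49 in bERKO. Their summed intensity ran from 853 to 7259 and from 8773 to 25817 after PMSG, and from 883 to 1844 and from 1646 to 4185 after hCG, WT before bERKO in each case. The 12 endothelial markers had a mean level of 6.79 to 7.66 on the bERKO hCG arrays and of 5.45 to 6.25 on the other 9, with sums of 1657 to 3274 against 469 to 1036. The 14 stromal and smooth muscle markers summed to 29573 to 42485 on the bERKO hCG arrays and to 14803 to 23327 elsewhere. Vim was the brightest of them on every array, at 14.55 to 14.67 on the bERKO hCG arrays and 13.55 to 14.33 elsewhere. The mean levels of this list overlapped, at 7.97 to 9.11 on the bERKO hCG arrays and 6.28 to 8.28 elsewhere. The 15 leukocyte markers summed to 1057 to 3526 on the bERKO hCG arrays against 465 to 1439 elsewhere. Their mean levels overlapped, at 5.86 to 6.76 on the bERKO hCG arrays and 5.21 to 6.1 elsewhere. Between genotypes after hCG 0 of the 15 were called, with a median of 0.79. The 6 measured theca markers showed no such shift as a list, with a median of -0.10 between genotypes after hCG. Their sum of 57416 to 58733 on the bERKO hCG arrays, against 25668 to 50068 elsewhere, rested on Star, a steroidogenic gene that luteinizing granulosa cells also express. Without Star the other 5 summed to 28243 to 32577 on the bERKO hCG arrays and to 25403 to 36272 elsewhere. The 12 measured granulosa markers summed to 51718 to 62614 on the bERKO hCG arrays and to 82739 to 120284 on the others. They did not move alike. Inhbb measured 11.35 to 12.09 on the bERKO hCG arrays and 14.08 to 14.77 on the others, whereas Inha measured 14.17 to 14.44 and 13.65 to 14.47. Between genotypes after hCG 9 of the 12 estimates lay below 0 and 3 above, with 4 called lower, against 1.54% of all genes. Group means under a level of 5, where a probe set is near the floor of 4, were found for 2, 0, 4 and 1 of the 17 oocyte markers in WT PMSG, bERKO PMSG, WT hCG and bERKO hCG, and for 1, 4, 1 and 0 of the 12 endothelial markers. For the 15 leukocyte markers these counts were 4, 2, 7 and 4. Oocytes and dividing vessel cells also use the genes of replication and mitosis. The part of these cells in the results below was not tested.

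The first comparison asks how the genes responded to hCG, averaged over both genotypes. Most of them were lower 4 h after hCG: 26 of the 48 measured genes fell and 1, Pcna, rose, while 21 did not pass in limma. Among all genes, 12.5% fell and 6.71% rose in this comparison. The median change was -0.87 for the 20 replication genes and -0.81 for the 26 mitotic genes, against -0.14 for all genes. Falls were found for 11 of the 20 replication genes and 14 of the 26 mitotic genes, and for E2f1. Centring each array on its median in place of quantile normalization moved the median of all genes from -0.14 to -0.31 and the share of rises among all calls from 35.0% to 19.6%. With that scaling 35 of the 48 genes fell and 0 rose. With the values as deposited the median of all genes was 0.00, 27 of the 48 fell and 1 rose. Without the pair of arrays that stood apart 24 fell and 1 rose.

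**Figure D1:**
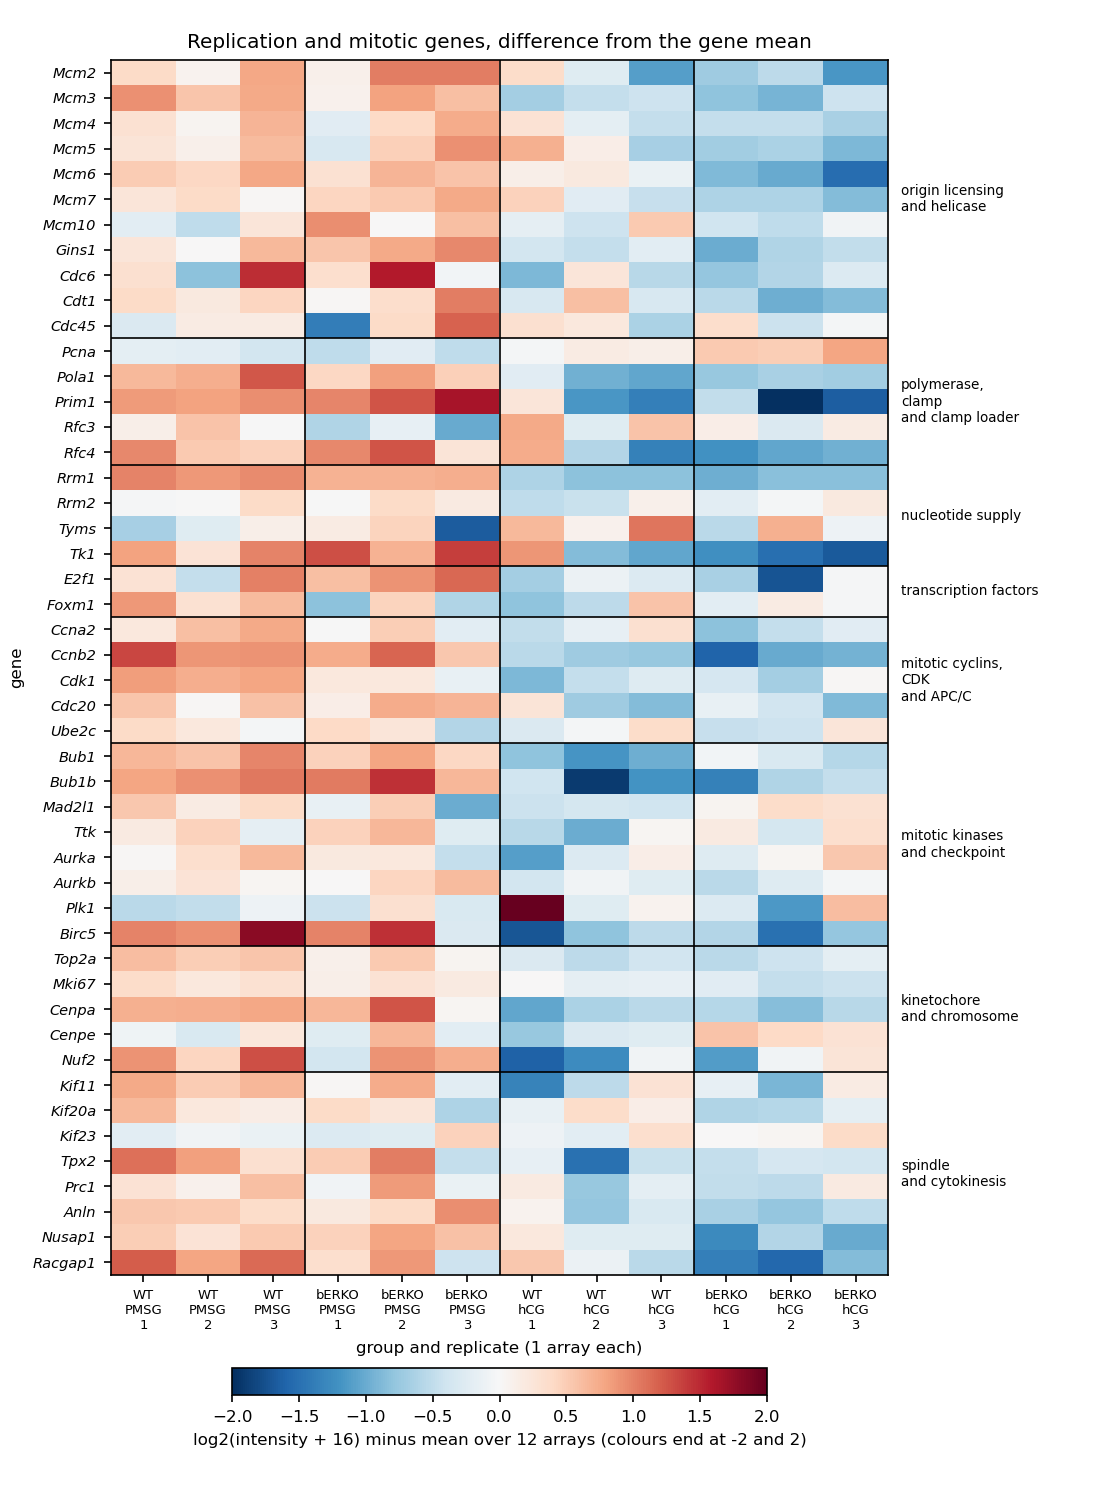
Each row is a measured gene and each column an array (12 arrays, replicates 1 to 3 of each group); the colour is the level, log2(intensity + 16), minus the gene's mean over the 12 arrays, and the rows follow the genes' roles. Most rows turn from red in the 6 PMSG columns to blue in the 6 hCG columns; Pcna runs the other way.

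The helicase and its loaders fell together in direction, with estimates below 0 for all 11 genes (median -0.80) and 6 that passed: Mcm2, Mcm3, Mcm6, Mcm7, Gins1 and Cdt1. Mcm3, a subunit of the ring, measured 12.32, 11.95 and 12.16 on the WT PMSG arrays and 11.48, 12.20 and 12 on the bERKO PMSG arrays. After hCG it measured 10.72, 10.93 and 10.98 in WT and 10.60, 10.47 and 10.99 in bERKO. Every hCG array lay below every PMSG array, and Mcm3 fell by 1.24 (SE 0.19), a 2.36-fold drop (limma adjusted p = 0.00122). Gins1, a subunit of the GINS complex, was also separated without overlap, at 10.06 to 11.02 on the PMSG arrays and 9.06 to 9.85 on the hCG arrays, a change of -1.05 (SE 0.19). Mcm2 changed by -1.13 (SE 0.29) and Mcm7 by -0.78 (SE 0.20). Cdt1, the licensing factor, changed by -0.80 (SE 0.24; limma adjusted p = 0.0348), and this call held in only 3 of the 12 fits that left out 1 array. Mcm4 (-0.66), Mcm5 (-0.69), Cdc6 (-0.94), Mcm10 (-0.36) and Cdc45 (-0.07) did not pass.

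Priming and nucleotide supply held the lowest estimates among the replication genes. Prim1, the catalytic subunit of primase, measured 10.77, 10.72 and 10.85 in WT and 10.89, 11.17 and 11.57 in bERKO after PMSG. After hCG it measured 10.16, 8.76 and 8.55 in WT and 9.42, 7.88 and 8.27 in bERKO. WT hCG replicate 1 was the highest of the hCG arrays, and the hCG and PMSG arrays still did not overlap. The change was -2.15 (SE 0.33), a 4.45-fold drop (limma adjusted p = 0.00119). Pola1, the catalytic subunit of polymerase alpha that works with primase, changed by -1.44 (SE 0.20), from 8.56 to 9.38 on the PMSG arrays to 7.11 to 7.91 on the hCG arrays. Rfc4, a subunit of the clamp loader, fell by 1.47 (SE 0.32), whereas Rfc3, another subunit of it, stood at 0.37 (SE 0.24) and did not pass. This contrast depends on the probe set: those of Rfc3 ran from -0.89 to 0.37 and those of Rfc4 from -1.47 to -1.01.

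Rrm1, the large subunit of ribonucleotide reductase, had the smallest p of the 48 genes in this comparison. It measured 12.76, 12.64 and 12.72 in WT PMSG and 12.47, 12.47 and 12.50 in bERKO PMSG. After hCG the values were 11.15, 10.95 and 10.95 in WT and 10.80, 10.93 and 10.94 in bERKO. The arrays of each treatment lay close together and far from the other treatment, and the change was -1.64 (SE 0.15; limma adjusted p = 0.000111). Its other probe sets did not show this: they changed by -0.15 and -0.02, and with the median over probe sets Rrm1 stood at -0.15 (limma adjusted p = 0.666). Rrm2, the small subunit, changed by -0.30 (SE 0.19) and did not pass. Tk1, thymidine kinase, fell by 1.81 (SE 0.32), and Tyms, thymidylate synthase, stood at 0.62 (SE 0.38) and did not pass. The Tyms probe sets ran from -0.94 to 0.62.

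Pcna, the sliding clamp, was the only one of the 48 genes that rose, in the averaged response and in the bERKO response. It measured 12.85, 12.83 and 12.67 in WT PMSG and 12.53, 12.81 and 12.53 in bERKO PMSG. After hCG it measured 13.00, 13.20 and 13.16 in WT and 13.56, 13.53 and 13.83 in bERKO. The 6 hCG arrays lay above the 6 PMSG arrays, with bERKO hCG above WT hCG. The averaged change was 0.68 (SE 0.16; limma adjusted p = 0.0119), and it was 1.02 (SE 0.23; limma adjusted p = 0.00927) in bERKO and 0.34 (SE 0.23; limma adjusted p = 0.503) in WT. The call held in each of the 12 fits without 1 array. It was lost when each array was centred on its median, where the averaged change was 0.28 (limma adjusted p = 0.35), that in bERKO 0.59 (limma adjusted p = 0.166) and that in WT -0.02. Pcna had 1 probe set.

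Among the mitotic genes, the cyclin-CDK group had estimates below 0 for all 5 measured genes and 3 that passed. Ccnb2, cyclin B2, measured 12.03, 11.57 and 11.59 in WT and 11.43, 11.86 and 11.23 in bERKO after PMSG, and 10.15, 9.98 and 9.93 in WT and 9.09, 9.68 and 9.75 in bERKO after hCG. The gap between the lowest PMSG array and the highest hCG array exceeded 1 log2 unit, and Ccnb2 fell by 1.85 (SE 0.20), or 3.61-fold (limma adjusted p = 0.000223). Cdk1, the kinase that binds it, fell by 0.88 (SE 0.19). Cdc20, the activator of the anaphase-promoting complex, fell by 0.91 (SE 0.25), a call that held in 6 of the 12 fits without 1 array. Ccna2, cyclin A2 (-0.62), and Ube2c, a ubiquitin-conjugating enzyme of the same complex (-0.20), did not pass.

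The spindle checkpoint genes Bub1b and Bub1 and Birc5, the survivin subunit of the chromosomal passenger complex, fell, and the other 5 kinase and checkpoint genes did not pass. Bub1b measured 10.07, 10.19 and 10.33 in WT PMSG and 10.32, 10.73 and 9.94 in bERKO PMSG, and 8.88, 7.36, 8.08 and 7.93, 8.67, 8.80 on the WT and bERKO hCG arrays. No hCG array reached a PMSG array, and the change was -1.98 (SE 0.28; limma adjusted p = 0.000689). Birc5 changed by -1.96 (SE 0.34) and Bub1 by -1.30 (SE 0.18). The kinases Aurka (-0.31), Aurkb (-0.50), Plk1 (0.52) and Ttk (-0.45) and the checkpoint protein gene Mad2l1 (-0.15) did not pass. The Plk1 estimate rested on WT hCG replicate 1, at 9.69, where the other 11 arrays lay between 5.99 and 7.76.

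Of the kinetochore and chromosome genes, Cenpa, the centromeric histone H3 variant (-1.40, SE 0.22), Nuf2, a subunit of the NDC80 complex (-1.29, SE 0.35), Top2a, topoisomerase II alpha (-0.79, SE 0.17) and Mki67, the gene of the Ki-67 antigen (-0.49, SE 0.15), fell. Mki67 was 13.70 to 13.95 on the PMSG arrays and 13.10 to 13.59 on the hCG arrays, without overlap. Its call held in 1 of the 12 fits that left out an array, and that of Nuf2 in 8 of 12 and not without the pair of arrays that stood apart. Cenpe, a kinetochore motor, did not pass (-0.02). Among the spindle and cytokinesis genes, Racgap1 of the centralspindlin complex (-1.31, SE 0.27), Tpx2, an activator of Aurora A (-1.09, SE 0.30), Nusap1, a microtubule-bundling protein (-1.05, SE 0.19), and the furrow scaffold anillin, Anln (-0.97, SE 0.20), fell. Tpx2 kept its call in 6 of the 12 fits without 1 array. The kinesins Kif11 (-0.83), Kif20a (-0.34) and Kif23 (0.15) and the midzone protein gene Prc1 (-0.54) did not pass.

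E2f1 measured 8.73, 7.97 and 9.45 in WT PMSG and 9.05, 9.34 and 9.60 in bERKO PMSG, and 7.77, 8.33 and 8.18 in WT hCG and 7.79, 6.72 and 8.42 in bERKO hCG. The bERKO hCG arrays lay below the bERKO PMSG arrays, while the WT treatments overlapped. The averaged change was -1.15 (SE 0.32; limma adjusted p = 0.0267), a call that held in 7 of the 12 fits without 1 array and not without the pair of arrays that stood apart. Foxm1 measured 8.52, 7.96 and 8.28 in WT PMSG, 6.83, 8.10 and 7.05 in bERKO PMSG, 6.84, 7.13 and 8.23 in WT hCG, and 7.44, 7.82 and 7.63 in bERKO hCG. The bERKO hCG arrays lay below the WT PMSG arrays and every other pair of groups overlapped. The averaged change was -0.28 (SE 0.29; limma adjusted p = 0.566). Its 4 probe sets ran from -0.60 to 0.07 in this comparison.

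Of the 27 calls in the averaged response, 21 held in all 12 fits without 1 array. A subset of 16 also held under all 10 other settings tried, other scalings among them: Mcm2, Mcm3, Mcm6, Mcm7, Gins1, Pola1, Prim1, Rfc4 and Tk1 on the replication side, and Ccnb2, Cdk1, Bub1, Bub1b, Birc5, Anln and Racgap1 on the mitotic side. Probe sets were a further limit. Of the 27 genes called, 20 had several probe sets, and for 4 of these the probe sets differed in sign: Mcm3 (-1.71 to 0.17), Mcm6 (-1.43 to 0.09), Top2a (-0.79 to 0.82) and Nusap1 (-1.05 to 0.46). With the median over probe sets Top2a passed in the opposite direction, as a rise of 0.82 (limma adjusted p = 0.0158), so its fall holds only for its brightest probe set.

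**Figure D2:**
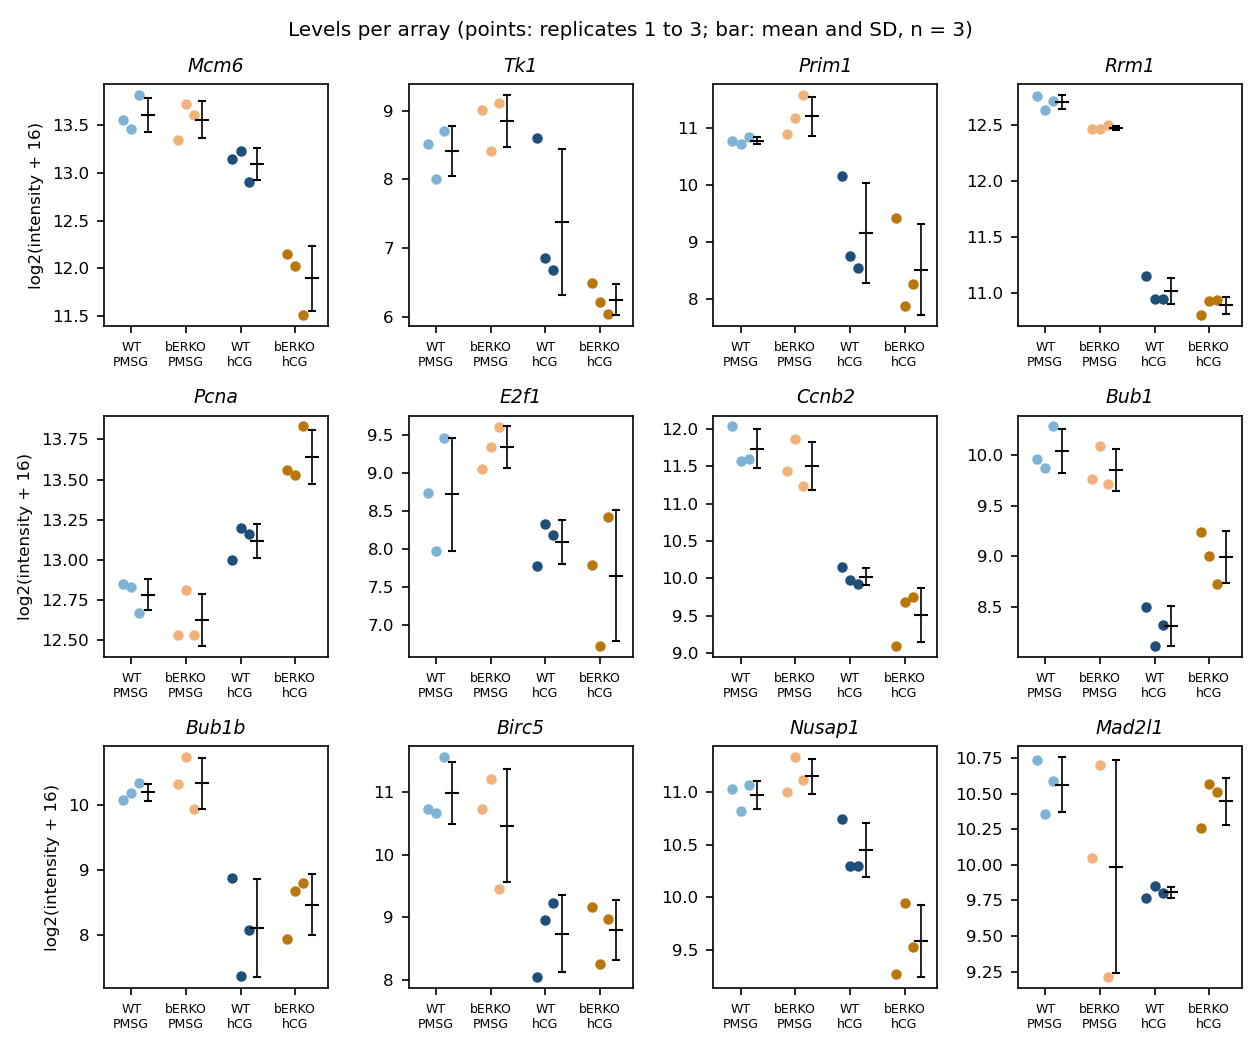
Levels, log2(intensity + 16), of 12 genes on each array (3 points per group, replicates 1 to 3; the bar beside them is the mean with its SD, n = 3). The axes differ between panels and do not start at 0. Rrm1, Ccnb2 and Bub1b fall after hCG in both genotypes, Mcm6 is lowest on the 3 bERKO hCG arrays, and Pcna is highest on them.

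Promoter sequences are shown for genes that fell after hCG and whose windows hold letters known from replication or mitotic promoters. RefSeq windows of the mouse build GRCm38.p6 were matched by symbol for 42 of the 49 genes, and the 250 bases before the start were searched on both strands. The letters TTTGGCGC or TTTCCCGC, which fit the known E2F site, stood in 5 of the 18 replication genes with a window (27.8%; Mcm5, Mcm6, Mcm7, Cdc6 and Pola1) and in 0 of the 23 mitotic genes. They stood in 1.3% of all 32851 windows. TTTGAA, the core of the CHR element bound by MuvB complexes, stood in 8 of the 23 mitotic genes (34.8%; Ccnb2, Cdk1, Cdc20, Ube2c, Top2a, Mki67, Prc1 and Kif11), in 2 of the 18 replication genes (11.1%; Mcm2 and Cdc45) and in 16% of all windows. CCAAT, the letters bound by NF-Y, stood in 72.2% of the replication genes, 78.3% of the mitotic genes and 33.8% of all windows. A listed gene was counted if any of its windows matched, whereas the share of all windows counts each window singly. Mcm7 (E2F letters) and Prc1 (TTTGAA) matched in only some of their windows. These matches describe the letters only, and binding was not measured. The stretches below run 5' to 3' on the gene's strand from shortly before the first match to the base before the start, with matches on either strand in capitals. Read on the strand shown, ATTGG is CCAAT, GCGCCAAA and GCGGGAAA are the E2F letters, and TTCAAA is TTTGAA of the other strand. The 3 search patterns did not overlap each other in these stretches.
Mcm6, chr1:128359706-128359835, minus strand: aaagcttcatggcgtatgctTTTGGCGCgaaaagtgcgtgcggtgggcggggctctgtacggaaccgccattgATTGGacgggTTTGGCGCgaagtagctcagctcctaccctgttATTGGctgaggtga
Mcm7, chr5:138171884-138172068, minus strand: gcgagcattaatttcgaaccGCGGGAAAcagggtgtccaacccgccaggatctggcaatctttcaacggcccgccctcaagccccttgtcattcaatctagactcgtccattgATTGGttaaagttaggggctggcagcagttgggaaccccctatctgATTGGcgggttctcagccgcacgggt
Pola1, chrX:93632156-93632313, minus strand: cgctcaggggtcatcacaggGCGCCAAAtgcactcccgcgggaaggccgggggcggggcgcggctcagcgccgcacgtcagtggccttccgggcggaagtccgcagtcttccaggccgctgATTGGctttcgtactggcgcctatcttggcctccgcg
Ccnb2, chr9:70421555-70421741, minus strand: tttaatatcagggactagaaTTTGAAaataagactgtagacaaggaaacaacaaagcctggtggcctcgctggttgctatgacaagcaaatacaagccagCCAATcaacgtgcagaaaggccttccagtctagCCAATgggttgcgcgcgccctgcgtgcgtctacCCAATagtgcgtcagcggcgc
Cdk1, chr10:69352913-69353140, minus strand: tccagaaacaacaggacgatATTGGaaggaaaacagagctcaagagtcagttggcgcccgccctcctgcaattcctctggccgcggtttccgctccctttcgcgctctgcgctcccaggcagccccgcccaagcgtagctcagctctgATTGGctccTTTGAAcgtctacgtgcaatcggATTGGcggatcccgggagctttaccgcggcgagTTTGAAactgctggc
Top2a, chr11:99024190-99024436, minus strand: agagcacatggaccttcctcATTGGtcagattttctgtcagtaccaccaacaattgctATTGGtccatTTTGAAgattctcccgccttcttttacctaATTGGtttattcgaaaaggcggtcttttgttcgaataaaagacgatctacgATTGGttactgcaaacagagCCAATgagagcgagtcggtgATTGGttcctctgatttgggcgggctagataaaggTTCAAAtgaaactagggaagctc
The 3 replication promoters hold E2F letters and CCAAT, with TTTGGCGC at 110 and 47 bases before the start in Mcm6. The 3 mitotic promoters hold TTTGAA and several CCAAT, with TTTGAA at 71 and 15 bases before the start in Cdk1. Of the 5 replication genes with E2F letters, Mcm6, Mcm7 and Pola1 fell in the averaged response and Mcm5 and Cdc6 did not pass. Of the 8 mitotic genes with TTTGAA, Ccnb2, Cdk1, Cdc20, Top2a and Mki67 fell and Ube2c, Prc1 and Kif11 did not pass. The calls of Cdc20 and Mki67 held in 6 and 1 of the 12 fits without 1 array, and Top2a turned to a rise with the median over probe sets.

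The responses were then taken within each genotype. In WT cells 9 of the 48 genes fell and 0 rose, against 1.35% and 0.731% of all genes. They were Mcm3 (-1.27, SE 0.27), Rrm1 (-1.69, SE 0.21) and Pola1 (-1.62, SE 0.29) of replication, and Ccnb2 (-1.71, SE 0.28), Cdk1 (-1.33, SE 0.27), Bub1 (-1.72, SE 0.25), Bub1b (-2.09, SE 0.39), Cenpa (-1.47, SE 0.31) and Birc5 (-2.25, SE 0.49) of mitosis. The medians were -0.49 for replication genes, -0.78 for mitotic genes and -0.08 for all genes. Cdk1, at 10.68, 10.58 and 10.64 after PMSG and 8.96, 9.37 and 9.59 after hCG, was the only gene called in WT and not in bERKO, where it stood at -0.43 (SE 0.27). Every WT hCG array lay below every WT PMSG array for 16 of the 26 mitotic genes and 6 of the 20 replication genes, against 15.2% of all genes, and Pcna lay above, as did 8.79% of all genes. Among genes that did not pass, Nuf2 stood at -1.85 (SE 0.50), Prim1 at -1.62 (SE 0.47), Foxm1 at -0.85 (SE 0.41), E2f1 at -0.62 (SE 0.46), Plk1 at 1.17 (SE 0.65), Tyms at 0.87 (SE 0.53), Rfc3 at 0.14 and Kif23 at 0.14.

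The WT count was not stable. It was 2 without WT PMSG replicate 1, 2 without replicate 2 and 1 without replicate 3 of that group, 1 without WT hCG replicate 2, 4 without WT hCG replicate 3 and 5 without bERKO hCG replicate 1. Only the call of Rrm1 held in each of the 12 such fits. That call was lost with the median over probe sets and in a fit of only the groups compared. The Rrm1 probe sets ran from -1.69 to -0.07 in WT. Of the 9 calls in WT 0 held under every setting tried. The WT count was 15 without both arrays that stood apart.

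In bERKO cells 20 of the 48 genes fell and 1, Pcna, rose, against 11.9% and 7.05% of all genes. Without the pair of arrays that stood apart 18 fell. The 20 were 11 of the 20 replication genes, 8 of the 26 mitotic genes, and E2f1. The medians were -1.23 for replication genes, -0.61 for mitotic genes and -0.19 for all genes; with each array centred on its median they were -1.60, -1.02 and -0.41. That scaling moved the share of rises among all calls from 37.2% to 24.3% in bERKO and from 35.2% to 18.1% in WT. Tk1 measured 9.01, 8.41 and 9.11 after PMSG and 6.49, 6.21 and 6.04 after hCG in bERKO, so the treatments lay over 1.5 units apart, a change of -2.60 (SE 0.46; limma adjusted p = 0.00275). Prim1 changed by -2.68 (SE 0.47), Rfc4 by -1.89 (SE 0.46), Mcm6 by -1.66 (SE 0.26), Rrm1 by -1.58 (SE 0.21), Mcm2 by -1.51 (SE 0.40) and Gins1 by -1.45 (SE 0.26). Mcm7 and Pola1 changed by -1.27, Cdt1 by -1.26 and Mcm3 by -1.21. Of the mitotic genes Ccnb2 changed by -2 (SE 0.28), Bub1b by -1.87 (SE 0.39), Birc5 by -1.67 (SE 0.49), Nusap1 by -1.57 (SE 0.26), Racgap1 by -1.53 (SE 0.38), Cenpa by -1.32 (SE 0.31), Anln by -1.14 (SE 0.29) and Bub1 by -0.87 (SE 0.25). E2f1 changed by -1.69 (SE 0.46; limma adjusted p = 0.024), a call lost without the pair of arrays that stood apart. Foxm1 (0.30, SE 0.41), Mad2l1 (0.46), Cenpe (0.35), Kif23 (0.16), Rfc3 (0.59) and Tyms (0.37) did not pass.

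All bERKO hCG arrays lay below all bERKO PMSG arrays for 15 of the 20 replication genes and 13 of the 26 mitotic genes, against 22.9% of all genes, and 1 gene, Pcna, lay above, against 13.3%. Of the 21 calls in bERKO, 14 held in all 12 fits without 1 array, and 9 of these also under the 11 other settings: Mcm3, Mcm6, Mcm7, Gins1, Prim1, Rfc4, Tk1, Ccnb2 and Bub1b. Of the 21 genes, 17 had several probe sets, and for 4 of these the probe sets differed in sign. They were Mcm3 (-1.97 to 0.2), Mcm6 (-2.12 to 0.29), Rrm1 (-1.58 to 0.23) and Nusap1 (-1.57 to 0.41). With the median over probe sets the calls of Rrm1 (limma adjusted p = 0.629), Pola1, Bub1, Cenpa, Nusap1 and E2f1 were lost. In this comparison, where 11.9% of all genes fell and 7.05% rose, 9 of the 17 oocyte markers fell as well. Of the 12 endothelial markers 5 rose, and of the 12 granulosa markers 6 fell, among them Fshr and Inhbb. The share of these cells in the result was not tested.

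The estimated changes in WT and in bERKO share no array. Their calls are not independent, because the fit took the spread of each gene from the arrays of both genotypes together. A fall was called in both for 8 genes, which is 8 of the 9 called in WT and 8 of the 20 called in bERKO: Mcm3, Pola1, Rrm1, Ccnb2, Bub1, Bub1b, Birc5 and Cenpa. With the median over probe sets the calls of Rrm1, Pola1, Bub1 and Cenpa were lost in both genotypes, and that of Mcm3 in WT. Among all genes 158 (0.868%) were called lower in both, which is 64.5% of those called in WT and 7.30% of those called in bERKO. Estimates were below 0 in both genotypes for 38 of the 48 genes, 16 of the 20 replication genes and 21 of the 26 mitotic genes among them, against 39.7% of all genes.

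**Figure D3:**
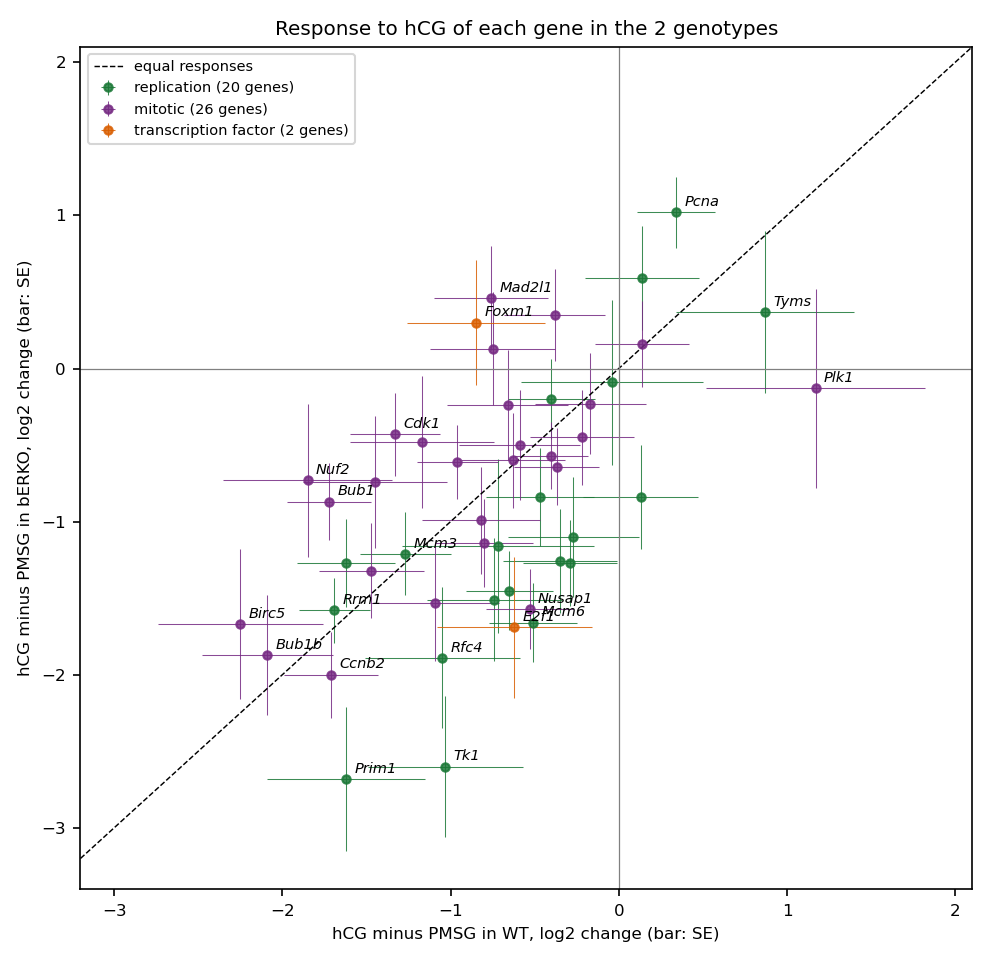
Each point is a measured gene, with its log2 change from PMSG to hCG in WT on the x axis and in bERKO on the y axis, bars of 1 SE, and the dashed line where both are equal; colours mark the 20 replication genes, 26 mitotic genes and 2 transcription factors. Prim1, Tk1, Mcm6 and Nusap1 lie below the line, Mad2l1, Foxm1, Cdk1 and Bub1 above it, and Rrm1, Mcm3 and Ccnb2 near it.

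Whether the genotypes responded differently was tested as the difference of the 2 responses, bERKO minus WT. None of the 48 genes passed, against 0.676% of all genes called higher and 0.638% called lower, and 7 had an unadjusted p under 0.05 in limma, against 15.3% of all genes, which is no more than the background. The smallest adjusted p was 0.159, that of Mcm6, with a difference of -1.15 (SE 0.37). Tk1 (-1.56, SE 0.65), Nusap1 (-1.04, SE 0.37) and Mcm7 (-0.98, SE 0.39) were the others of the 7 with an estimate below 0. Mad2l1 (1.22, SE 0.48), Cdk1 (0.90, SE 0.38) and Bub1 (0.86, SE 0.36) had estimates above 0. Estimates for E2f1 and Foxm1 were -1.07 (SE 0.64) and 1.16 (SE 0.58). The medians were -0.64 over the replication genes, with 14 of 20 below 0, and 0.12 over the mitotic genes, with 10 of 26 below 0, against -0.11 over all genes. For the helicase and loading genes the median was -0.80, with 10 of 11 below 0. The replication median was -0.33 without both arrays that stood apart and -0.29 with the median over probe sets. The SE of these differences ran from 0.30 to 0.92 over the 48 genes.

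WT hCG replicate 1 stood differently in the programmes. It was the highest of its group for 11 of the 20 replication genes, with a median of 0.37 above the mean of the other 2 arrays, and for 12 of the 26 mitotic genes it was the highest and for 12 the lowest, with a median of -0.07. Tk1 measured 8.60 on it, inside the range of the WT PMSG arrays (8 to 8.71), against 6.86 and 6.68 on the other WT hCG arrays. Mcm5 measured 12.81 against 12.24 and 11.43, Mcm7 13.02 against 12.33 and 12.11, and Rfc4 10.67 against 9.35 and 8.58. Birc5 (8.04 against 8.95 and 9.23) and Nuf2 (7.22 against 7.58 and 8.76) were lowest there.

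The genotype difference after hCG had 1 call among the 48 genes, Mcm6, a subunit of the helicase, against 1.54% of all genes called lower and 1.55% called higher. Mcm6 measured 13.15, 13.23 and 12.90 in WT and 12.15, 12.03 and 11.51 in bERKO after hCG, where the groups did not overlap. After PMSG it measured 13.55, 13.46 and 13.81 in WT and 13.34, 13.72 and 13.61 in bERKO, which did overlap. The difference after hCG was -1.20 (SE 0.26), or 2.29-fold lower in bERKO (limma adjusted p = 0.0335). Its probe sets gave -1.20 and -1.47, and 0.30 for a dim one with a mean level of 4.80. The call held in 5 of 12 fits without 1 array, was lost without WT PMSG replicates 1 or 2, WT hCG replicates 1 or 2 or any bERKO hCG array, and was lost without both arrays that stood apart, where the difference was -1.17 (limma adjusted p = 0.0828). With each array centred on its median it was -0.88 (limma adjusted p = 0.213), and with the values as deposited the adjusted p was 0.0609. Among all genes, the share of calls that were higher was 50.2%, and 66.5% and 39.1% under these other scalings.

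Across the replication genes the estimates after hCG lay below 0 for 17 of 20, with a median of -0.39, and across the mitotic genes for 12 of 26, with a median of 0.04; the median of all genes was -0.06. Without WT hCG replicate 1 the replication median was -0.23. The 11 helicase and loading genes lay at or below 0, from -1.20 for Mcm6 to 0.00 for Cdc45. Tk1 (-1.13, SE 0.46), Mcm5 (-0.80, SE 0.39), Cdt1 (-0.78, SE 0.34) and Mcm7 (-0.63, SE 0.28) did not pass, nor did Pcna (0.52, SE 0.23), Rrm2 (0.27) and Pola1 (0.04). On the mitotic side the estimates spread to both sides without a call. Racgap1 (-1.23, SE 0.38), Plk1 (-1.07, SE 0.65) and Nusap1 (-0.87, SE 0.26) were lowest, and Cenpe (0.85, SE 0.30), Bub1 (0.68, SE 0.25) and Nuf2 (0.67, SE 0.50) highest. Nusap1 measured 10.75, 10.30 and 10.30 in WT and 9.27, 9.95 and 9.53 in bERKO, and Bub1 measured 8.50, 8.11 and 8.32 in WT and 9.24, 9 and 8.73 in bERKO. The genotypes did not overlap in either gene, in opposite directions. E2f1 stood at -0.45 (SE 0.46) and Foxm1 at 0.23 (SE 0.41). In all, 9 of the 48 genes had an unadjusted p under 0.05 in limma, near the 17.5% of all genes. Groups without overlap were found for 11 of the 48 genes on the low side and 4 on the high side in bERKO, against 13.2% and 11.4% of all genes.

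**Figure D4:**
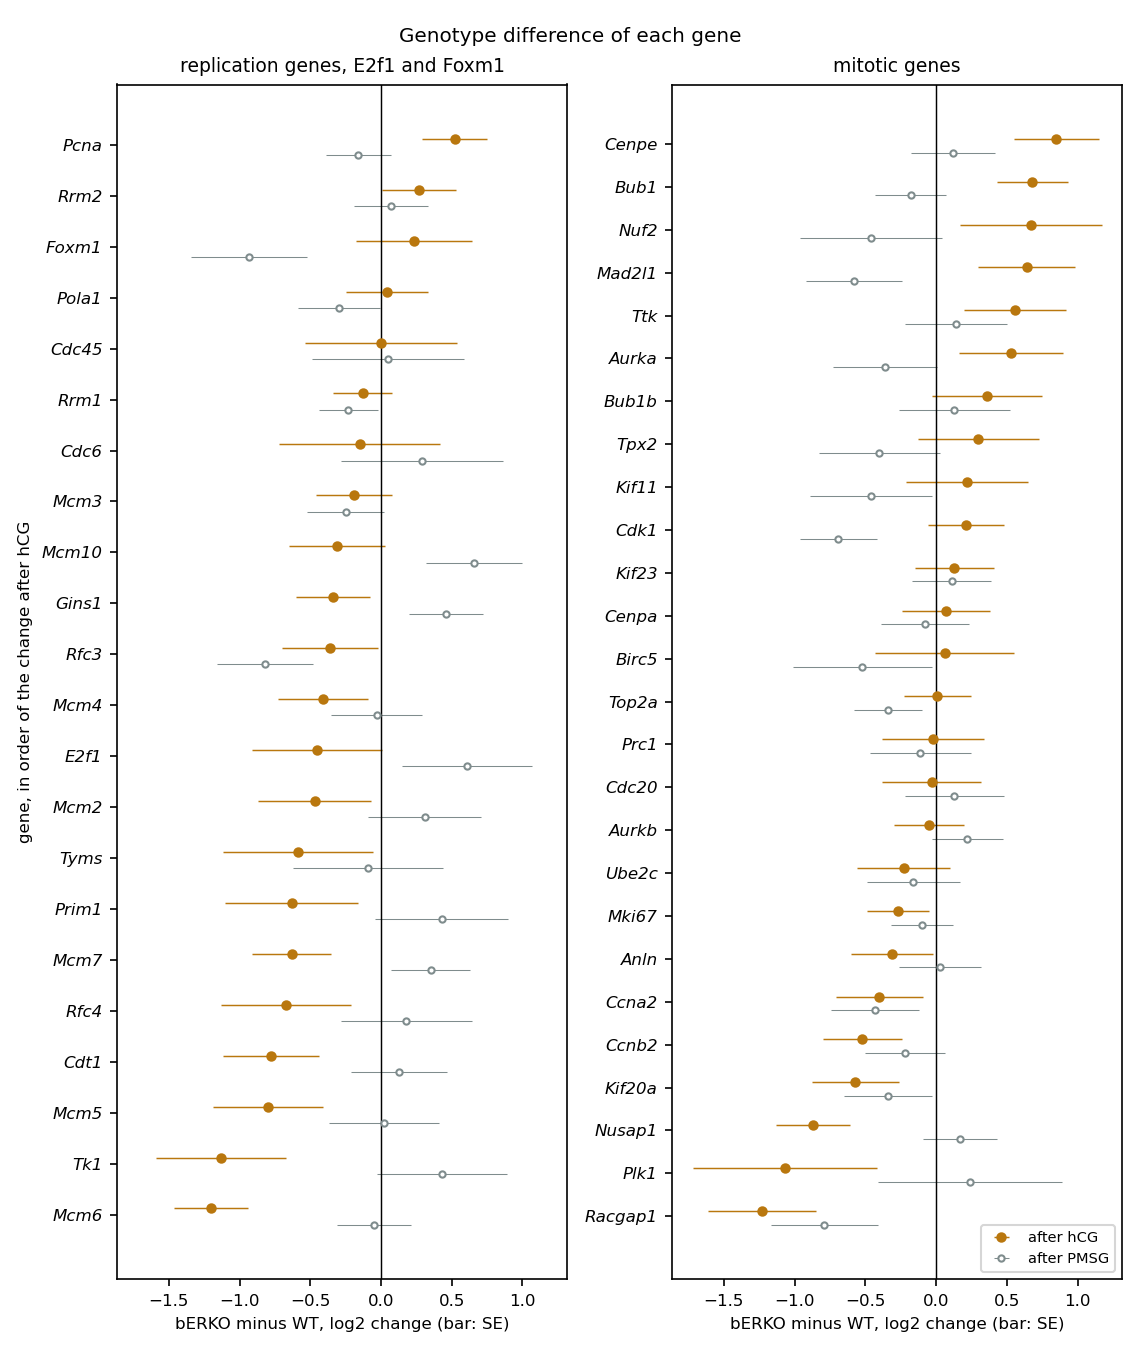
Log2 difference between bERKO and WT of each gene after hCG (filled points) and after PMSG (open points), with bars of 1 SE, in order of the difference after hCG; replication genes and the 2 transcription factors are on the left, mitotic genes on the right. After hCG 17 of 20 replication genes lie below 0, with Mcm6 lowest at -1.20, whereas the mitotic genes lie on both sides.

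After PMSG alone none of the 48 genes passed between genotypes, against 0.011% of all genes called lower and 0% called higher. The medians were 0.06 for replication genes, -0.17 for mitotic genes and 0.04 for all genes, and after median centring of the arrays 0.39, 0.06 and 0.24. An unadjusted p under 0.05 in limma was found for 3 of the 48 genes, a smaller share than the 9.53% of all genes: Cdk1 (-0.69, SE 0.27), Rfc3 (-0.82, SE 0.34) and Foxm1 (-0.93, SE 0.41). The other 3 probe sets of Foxm1 had the opposite sign, up to 0.57. Cdk1 measured 10.58 to 10.68 in WT and 9.71 to 10.07 in bERKO, without overlap. In all, 3 of the 48 genes lay lower and 2 higher in bERKO without overlap, against 6.58% and 8.14% of all genes. The other extremes were Pola1 (-0.30) and Mcm3 (-0.25) on the low side and Mcm10 (0.66), Gins1 (0.46) and Tk1 (0.43) on the high side of replication. Those of mitosis were Racgap1 (-0.79) and Mad2l1 (-0.58) on the low side, and Plk1 (0.24), Aurkb (0.22) and Nusap1 (0.17) on the high side. Probe sets differed in sign for Pola1 (-0.30 to 1.81), Mcm10 (-0.14 to 0.66), Racgap1 (-0.79 to 0.14) and Nusap1 (-0.88 to 0.17). E2f1 stood at 0.61 (SE 0.46). bERKO PMSG replicate 3, the array with the high Gapdh ratio and the highest oocyte marker level, was lowest of its group for 17 of the 26 mitotic genes and 4 of the 20 replication genes. Mad2l1, for one, measured 9.21 on it against 10.05 and 10.70. Without that array the mitotic median was -0.05. Replicate 2 of the same group was the highest for 21 of the 26 mitotic genes, and without it the mitotic median was -0.39.

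The list means by array put the programmes side by side. The replication genes averaged 10.55, 10.42 and 10.78 in WT PMSG and 10.43, 10.83 and 10.71 in bERKO PMSG, then 10.30, 9.95 and 9.81 in WT hCG and 9.66, 9.59 and 9.62 in bERKO hCG. The bERKO hCG arrays were lowest, and every hCG array lay below every PMSG array. The mitotic genes averaged 10.54, 10.42 and 10.57 in WT PMSG, 10.24, 10.67 and 10.04 in bERKO PMSG, 9.66, 9.46 and 9.76 in WT hCG, and 9.51, 9.50 and 9.84 in bERKO hCG. Here too each hCG array lay below each PMSG array, while the genotypes overlapped after hCG.

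Other genes of these pathways, outside the list of 49, were read from 4 lists. Of 48 measured other replication genes 26 fell and 1 rose in the averaged response, with a median of -0.99, and of 67 measured other mitotic genes 38 fell and 0 rose, with a median of -0.82. The shares over all genes were 12.5% for falls and 6.71% for rises. Rpa1, the large subunit of the single-strand binding protein, fell by 2.09 (SE 0.23), and Rfc2 of the clamp loader by 2.21 (SE 0.25). Wdhd1, a replisome adaptor, fell by 2.07 (SE 0.27) and Dut, which clears dUTP, by 1.20 (SE 0.16). The gene that rose was Mcm9, an MCM relative with a role in recombination (0.56, SE 0.16). Among the mitotic genes, Melk, a kinase (-2.04, SE 0.20), the centromere gene Cenpk (-1.77, SE 0.19), Ect2, the exchange factor that acts with Racgap1 (-1.78, SE 0.21), and Pbk, a kinase (-1.52, SE 0.19), fell.

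Within genotypes, other replication genes fell for 4 of 48 in WT (Dbf4, Rfc2, Rpa3 and Dut) and for 24 of 48 in bERKO, with medians of -0.53 and -1.14. Other mitotic genes fell for 11 of 67 in WT and 17 of 67 in bERKO, with medians of -0.97 and -0.82, and 1, the kinetochore gene Zwint, rose in bERKO (1.25, SE 0.36). The share of falls over all genes also differed, at 1.35% in WT and 11.9% in bERKO, where 7.05% rose. Between genotypes after hCG 1.54% of all genes were called lower and 1.55% higher in bERKO. Of the 48 other replication genes 42 lay below 0 (median -0.54) and 3 were lower in bERKO. These were Pold2, a subunit of polymerase delta (-1.39, SE 0.28), Ung, uracil-DNA glycosylase (-1.92, SE 0.43), and Chaf1b, a chromatin assembly factor (-1.34, SE 0.31). Pold2 measured 8.67, 7.86 and 8.58 in WT hCG and 6.70, 7.26 and 6.99 in bERKO hCG, which did not overlap. The other mitotic genes had a median of -0.04, and 1 of them, Zwint, was higher in bERKO (1.48, SE 0.36), with WT hCG replicate 1 at 11.37 against 12.93 and 12.79 on the other WT hCG arrays. The difference of responses had 0 calls among other replication genes (median -0.51, 12 of 48 with an unadjusted p under 0.05 in limma) and 0 among other mitotic genes (median 0.14, 6 of 67 such genes), against 15.3% of all genes at that unadjusted p.

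**Figure D5:**
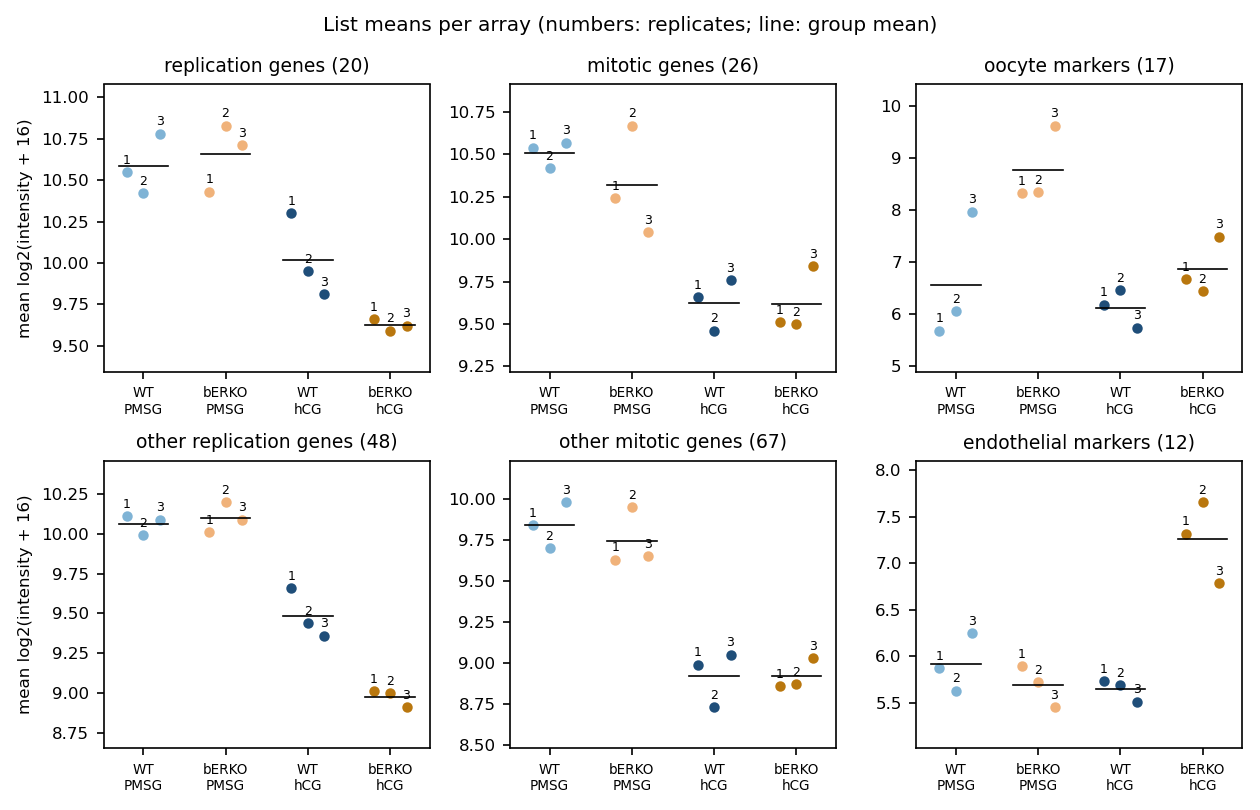
Mean level, log2(intensity + 16), of the measured genes of 6 lists on each array (points numbered by replicate, line at the group mean; axes differ and do not start at 0). Both replication panels are lowest on the bERKO hCG arrays, in both mitotic panels the genotypes overlap after hCG, oocyte markers are highest on the bERKO PMSG arrays and endothelial markers on the bERKO hCG arrays.

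In the averaged response 12.5% of all genes fell and 6.71% rose. Of the 17 E2F, RB and MuvB regulators other than E2f1, 6 fell in it and 0 rose, with a median of -0.51. They were the activator E2f2 (-1.35, SE 0.24), the pocket protein genes Rbl1 (-1.30, SE 0.28) and Rb1 (-0.78, SE 0.22), the repressor E2f7 (-1.12, SE 0.26), the E2F partner Tfdp2 (-0.87, SE 0.23) and Mybl2, which encodes B-Myb (-1.45, SE 0.42). In WT 0 of the 17 passed, with 8 at an unadjusted p under 0.05 in limma, against 17.1% of all genes. In bERKO 4 of the 17 fell, E2f2, E2f6, Rb1 and Rbl1, against 11.9% of all genes. Of 13 G1 cyclins and CDK inhibitors, Cdkn1a, which encodes the inhibitor p21, rose by 1.12 (SE 0.18), and Cdkn2c (-1.83, SE 0.20) and Cdkn2d (-1.21, SE 0.31), which encode p18 and p19 of the INK4 family, fell. These counts, 1 rise and 2 falls of 13, are near the 6.71% and 12.5% of all genes. Cdkn1a measured 9.70, 9.61 and 9.49 in WT PMSG, 9.49, 9.63 and 9.35 in bERKO PMSG, 9.84, 10.11 and 10.65 in WT hCG, and 10.98, 11.14 and 11.27 in bERKO hCG. All hCG arrays lay above all PMSG arrays. In bERKO Ccnd1, cyclin D1, also rose (1.16, SE 0.35) and Cdk6 fell (-1.32, SE 0.38). There 2 of the 13 rose and 3 fell, against 7.05% and 11.9% of all genes. No gene of the last 2 lists passed between genotypes after hCG.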

How the data were processed

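The authors deposited 1 intensity per probe set on a linear scale for each of the 12 one-colour Affymetrix mouse arrays, scaled to a 2% trimmed mean of 500 on every array. Per the labels, 25 ng of RNA from laser-captured cells was amplified with NuGEN Ovation Pico WTA. Which software made them is not stated in the labels used here. After 64 control probe sets were left out, the remaining 45037 were quantile normalized and taken as log2(intensity + 16). Probe sets naming 1 gene gave 18193 genes, the brightest probe set standing for each. limma 3.58.1 (R 4.3.3) was fitted over all 12 arrays, with two-sided tests and Benjamini-Hochberg adjustment within each comparison, and was tested on simulated data. Figures used Python 3.11.15 and matplotlib 3.10.9. The number of arrays limits the precision.

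The members and lists were chosen with earlier results of these data known, so no count over them is independent support. Named genes were every called member, the 3 largest rises and falls per role and comparison, E2f1, Foxm1, Esr2, and up to 4 called genes per other list with the smallest p. Genes named beyond this were chosen after their values were seen. Levels of different probe sets were not compared. Alternatives covered scaling, offset, dim genes, probe set choice, arrays fitted, array weights, a replicate block and arrays left out.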

Additional observations from a re-analysis of the deposited data

Results flagged for a closer look

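A difference between the hCG responses of bERKO and WT (bERKO minus WT) passed in limma for 3 genes of the marker lists and for none of the replication or mitotic genes. Inhbb, the inhibin beta B subunit of granulosa cells, had a difference of -2.44 (SE 0.40; limma adjusted p = 0.0157). The endothelial genes Cdh5 and Emcn had differences of 4.03 (SE 0.70; limma adjusted p = 0.0228) and 3.70 (SE 0.50; limma adjusted p = 0.00819).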

How the results depend on the processing

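The 12 arrays, 3 per group, set the limit of what could be seen, and a dim probe set changes less on the log2(intensity + 16) scale than its transcript does. The fall in the averaged and bERKO responses was called for 21 to 27 and 14 to 22 genes over the fits without 1 array, and the 26 and 20 reported stayed within 1.5 times under every other setting. The WT count of 9 falls was 1 to 10 over the fits without 1 array, 18 with array weights, 15 without both arrays that stood apart, 5 with values as deposited, 4 with log2(intensity + 1), 4 with the median over probe sets, and 0 in a fit of only the groups compared. The 1 fall between genotypes after hCG was 0 to 1 over the fits without 1 array. It was 2 with array weights (with 1 rise) and with log2(intensity + 64), and 0 as deposited, median-centred, with log2(intensity + 1), with only the groups compared, and without both arrays. The cause was not tested.

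Same-numbered replicates did not deviate together: over 18 pairs the correlation of their deviations ran from -0.08 to 0.12, 1 pair exceeded 0.1, and 3 of 12 arrays correlated best with their own number. The replicate block gave 3 falls in WT and 0 after hCG between genotypes, and changed no other count by over 1.5 times.

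Centring on the array median gave 0 rises in the averaged and bERKO responses, and list medians (replication, then mitotic) of -1.16 and -1.12 in the averaged response, -1.60 and -1.02 in bERKO, and 0.39 and 0.06 between genotypes after PMSG; the replication median in WT was -0.81. The median over probe sets gave 2 rises in the averaged and 2 in the bERKO response, and -0.29 for the replication median of the difference of responses, which was -0.33 without both arrays. Over the fits without 1 array the replication and mitotic medians between genotypes ran from -0.06 to 0.29 and -0.39 to -0.05 after PMSG, and the mitotic median of the difference of responses from -0.04 to 0.42.

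Signs turned for genes without a call, except Top2a. With median centring these were Mcm3 (0.08) after PMSG and Pola1 (-0.02) after hCG between genotypes, Rfc3 (-0.06), Pcna (-0.02) and Kif23 (-0.10) in WT, Kif23 (-0.22) and Cenpe (-0.01) in bERKO, and Kif23 (-0.16) in the averaged response. With the median over probe sets they were Pola1 (0.75) and Nusap1 (-0.35) after PMSG, Rfc3 (-0.45) and Kif23 (-0.52) in WT, Rfc3 (-0.07), Kif23 (-0.11) and Foxm1 (-0.27) in bERKO, Pola1 (-0.66) in the difference of responses, and Top2a (0.82), Rfc3 (-0.26) and Kif23 (-0.32) in the averaged response. As deposited, Plk1 was -0.01 after PMSG and Pola1 -0.16 after hCG; with array weights Rfc3 was -0.11 in WT. Without both arrays that stood apart, Foxm1 was -0.05 after hCG, Rfc3 -0.06 in WT and Tyms -0.28 in bERKO. Over the fits without 1 array, Foxm1 ran from -0.05 to 0.65, Pola1 from -0.10 to 0.29 and E2f1 from -0.84 to 0.01 after hCG, Rfc3 from -0.06 to 0.44 and Kif23 from -0.02 to 0.25 in WT, and Tyms from -0.28 to 0.77 in bERKO; the lowest Foxm1 and Rfc3 values came without WT hCG replicate 1, those of Pola1 and Kif23 without WT hCG replicate 3, that of Tyms without bERKO PMSG replicate 3, and the highest E2f1 value without bERKO hCG replicate 2. Over all 18193 genes the calls ranged over all settings from 0 to 26 (2 reported), 141 to 1239 (562), 31 to 1598 (378), 2302 to 3969 (3447), 2723 to 4640 (3488) and, for the difference of responses, 81 to 454 (239), in the order after PMSG and after hCG between genotypes, WT, bERKO and averaged response. Taking log2 before quantile normalization was an alternative added after the data were seen.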

Other observations

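Split by role, the median response to hCG in WT and in bERKO was -0.47 and -1.21 over the 11 helicase and loading genes, -1.05 and -1.27 over the 5 polymerase, clamp and clamp loader genes, and -0.72 and -0.89 over the 4 nucleotide genes. It was -0.82 and -0.60 over the 5 cyclin and APC/C genes, -0.76 and -0.44 over the 8 kinase and checkpoint genes, -0.96 and -0.61 over the 5 kinetochore and chromosome genes, and -0.70 and -0.62 over the 8 spindle and cytokinesis genes. Taken gene by gene, the median difference of the responses (bERKO minus WT) was -0.80, 0.34 and -0.20 for these replication groups and -0.06, 0.50, 0.35 and -0.10 for the mitotic groups, in the same order, so the estimates of neither programme lay all on one side. These are descriptions without a test, and no single gene passed the test of a difference between the responses.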
